A study of Capra hircus with 6 samples.

Results

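Cholesterol handling was examined through 31 genes in goat adipose mesenchymal stem cells, covering the enzymes of sterol synthesis, the sensor proteins of the endoplasmic reticulum, and genes of sterol uptake, transport, esterification, efflux and release from lysosomes. The genes were taken by name from a fixed list, which was chosen with earlier results of these data known. All 31 were found among 16285 deposited gene rows, 29 by identifier and 2 (IDI1 and CYP51A1) by the symbol that the deposited annotation gives to rows named LOC102191533 and LOC102177400. RNA was sequenced from wild-type control cells (genotype WT, 3 libraries) and from cells labelled as overexpressing YAP (3 libraries). Both groups carried adipogenic differentiation as treatment. The labels give no vector, no clone and no animal of origin for either group, and do not state whether replicates were separate cultures, so p-values measure the spread between these samples only, which may be technical. The series' design text names an overexpression line for TAZ, whereas the sample labels name YAP.

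Cholesterol is built from acetyl-CoA by a long chain of enzymes in the cytosol and endoplasmic reticulum. When sterol in the endoplasmic reticulum is low, SCAP escorts the membrane-bound factor SREBF2 to the Golgi for cleavage, and the freed fragment activates the genes of synthesis and uptake. INSIG proteins hold SCAP back when sterol is plentiful. Surplus cholesterol is esterified or exported, and oxysterols made from it activate the LXR nuclear receptors, which induce efflux genes. Cholesterol that enters as lipoprotein is freed in the lysosome by the lipase LIPA and handed out by NPC2 and NPC1. In fat tissue, adipocytes store large amounts of free cholesterol.

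Levels are FPKM, counted fragments scaled to the length of the gene model and to the size of the library, so they can be compared between genes. Changes are labelled YAP minus control on the log2(FPKM + 1) scale, which shrinks the change of weakly expressed genes. A gene was called when its limma adjusted p was under 0.05. Each library held 32593380 to 37131015 counted fragments. YAP1 itself had 25.8, 27.0 and 28.9 FPKM in control replicates 1 to 3 and 28.4, 25.6 and 28.2 FPKM in the libraries labelled YAP, with a log2 change of 0.01 (SE 0.08, limma adjusted p = 0.95, exact two-sided permutation p = 1, smallest possible 0.1). The groups overlapped for YAP1, and a direction given below therefore follows the label, since no rise of YAP1 was measured. WWTR1, the gene of TAZ, had 30.2, 29.9 and 35.9 FPKM in controls and 21.9, 19.2 and 23.1 FPKM in the libraries labelled YAP, and was called lower (log2 change -0.56, SE 0.10, limma adjusted p = 0.0013). The 9 mesenchymal markers checked were at 37.7 FPKM or more in every library, with 3 called higher and 3 called lower. The adipocyte genes PPARG, ADIPOQ, PLIN1, LPL and LEP did not exceed 0.24 FPKM, and FABP4 and CIDEA lay between 1.01 and 3.90 FPKM. The endothelial markers PECAM1, CDH5, KDR, TEK and VWF did not exceed 0.42 FPKM. In bulk RNA, fewer cells of a type and less RNA per cell cannot be told apart.

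Most of the pathway rose in the libraries labelled YAP. Of 31 members, 30 passed the filter on low values, 21 of these were called higher, 2 lower and 7 were not called. Over all 10761 tested genes, 35.9% were called in either direction, 12.9% higher and 23.0% lower. All 30 were at 2.08 FPKM or more in every library, so no member entered through 1 group alone. The median log2 change was 0.48 over the tested members and -0.10 over all tested genes, and 25 of 30 members had a positive sign against 36.3% of all tested genes. In 23 of the 30 the values of the groups did not overlap, against 48.3% of tested genes. The count over all genes fell from 3868 to 2290 when YAP replicate 1 was left out, and the share of lower calls over all genes was 64.0% as deposited, 45.6% after median-of-ratios scaling, 53.9% with a fixed sum and 55.1% after quantile normalization. Under all 3 of these scalings 21 members were higher and 2 lower, and without YAP replicate 1 there were 18 higher and 2 lower.

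**Figure D1:**
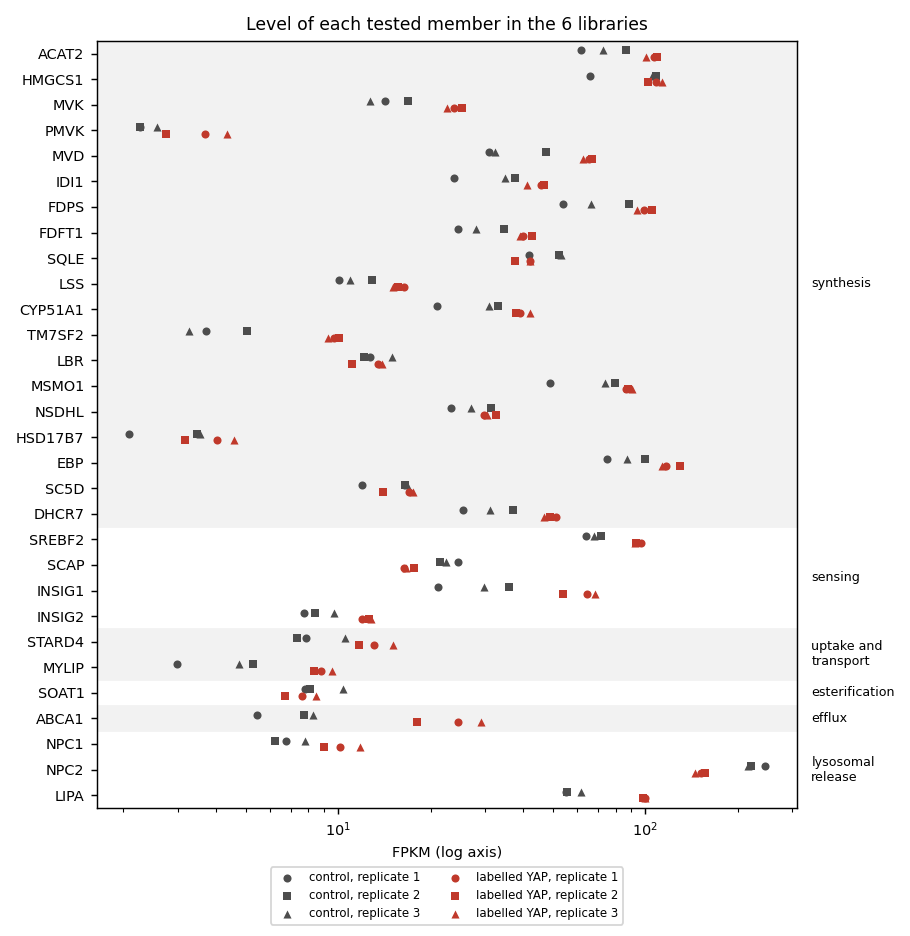
Level of the 30 tested members in each library, in FPKM on a log axis, with control libraries in grey and libraries labelled YAP in red, symbols by replicate number and shading by role. The red points of ABCA1, TM7SF2, INSIG1, MVD and LIPA lie to the right of all grey ones, those of NPC2 and SCAP to the left, and the grey circle of control replicate 1 is the leftmost point in many rows of synthesis genes.

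The early enzymes, from acetyl-CoA to farnesyl diphosphate, were mostly higher. ACAT2, which joins acetyl-CoA units at the entry of the pathway, had 61.6, 86.5 and 72.7 FPKM in control replicates 1 to 3 and 107, 109 and 100 FPKM in YAP replicates 1 to 3. Every library labelled YAP lay above every control, with a log2 change of 0.52 (SE 0.11, limma adjusted p = 0.0037). HMGCS1, which makes HMG-CoA, had 66.0, 108 and 105 FPKM in controls and 108, 102 and 113 FPKM in the libraries labelled YAP. Only control replicate 1 of HMGCS1 stood below the others. Its log2 change was 0.25 (95% confidence interval -0.09 to 0.58, limma adjusted p = 0.24), and 0.02 without control replicate 1.

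The kinases and the decarboxylase of the mevalonate branch rose without overlap between groups, against 48.3% of all tested genes without overlap. MVK, mevalonate kinase, had 14.2, 16.9 and 12.7 FPKM in controls against 23.8, 25.2 and 22.7 FPKM (log2 change 0.68, SE 0.10, limma adjusted p = 4.3e-04). MVD, the mevalonate diphosphate decarboxylase, had 30.9, 47.6 and 32.3 FPKM in controls against 65.3, 66.9 and 62.7 FPKM. Its log2 change of 0.82 (SE 0.13, limma adjusted p = 7.8e-04) was the largest among the enzymes before squalene. PMVK, phosphomevalonate kinase, was expressed far lower, at 2.27, 2.27 and 2.57 FPKM in controls and 3.67, 2.74 and 4.33 FPKM in the libraries labelled YAP. The PMVK change of 0.43 (limma adjusted p = 0.020) was no longer called without control replicate 1, YAP replicate 1 or YAP replicate 3, where the adjusted p ran from 0.069 to 0.074. IDI1, which isomerises isopentenyl diphosphate, went from 32.2 ± 7.30 to 44.6 ± 3.04 FPKM (SD, n = 3 per group), and FDPS, farnesyl diphosphate synthase, from 69.8 ± 17.5 to 99.3 ± 5.74 FPKM. The IDI1 change of 0.48 (limma adjusted p = 0.021) was 0.29 without control replicate 1 and not called without YAP replicate 1 (adjusted p = 0.063). The FDPS change of 0.53 (limma adjusted p = 0.014) was not called without control replicate 1 (adjusted p = 0.056).

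Farnesyl diphosphate is also the branch point for other isoprenoids such as dolichol, ubiquinone and protein prenyl groups. Of 11 tested genes of that branch, limma called 0 higher and 0 lower, beside 12.9% higher and 23.0% lower over all tested genes. At an unadjusted limma p under 0.05, 1 of the 11 was higher and 1 lower, and limma-voom called 0 in either direction. The median log2 change of the 11 was -0.07, beside -0.10 for all tested genes. In 6 of the 16 alternative fits 1 or more of the 11 was called, with 1 higher after median-of-ratios scaling, after quantile normalization or without control replicate 3, 1 lower without control replicate 2, 1 higher and 1 lower with the replicate block, and 1 higher and 2 lower with library weights.

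At squalene the pattern divided. FDFT1, squalene synthase, rose from 29.1 ± 5.07 to 40.5 ± 1.93 FPKM (log2 change 0.48, limma adjusted p = 0.0064). SQLE, the next enzyme and an oxygen-dependent epoxidase, had 41.9, 52.2 and 53.0 FPKM in controls and 42.3, 37.6 and 42.1 FPKM in the libraries labelled YAP. SQLE was the member of the SREBF2 target list with a negative sign, at -0.26 (95% confidence interval -0.48 to -0.04, limma adjusted p = 0.064). The groups met only at control replicate 1, and without that library the SQLE change was -0.36 (limma adjusted p = 0.012). LSS, which closes the sterol ring system, rose from 11.3 ± 1.43 to 15.7 ± 0.67 FPKM (log2 change 0.45, limma adjusted p = 0.0044).

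Among the enzymes that trim lanosterol, changes differed from step to step. CYP51A1, the lanosterol demethylase, had 21.0, 33.1 and 30.9 FPKM in controls and 39.1, 37.9 and 42.2 FPKM in the libraries labelled YAP, giving a log2 change of 0.50 (limma adjusted p = 0.017) that was 0.30 (limma adjusted p = 0.025) without control replicate 1. TM7SF2 and LBR both encode sterol reductases for the following step, and LBR is also an inner nuclear membrane protein that binds lamin B. TM7SF2 had 3.72, 5.03 and 3.28 FPKM in controls and 9.69, 10.1 and 9.28 FPKM in the libraries labelled YAP. This was the largest rise among the synthesis enzymes (log2 change 1.11, SE 0.12, limma adjusted p = 4.2e-05), and the groups were far apart. LBR had 12.7, 12.1 and 15.0 FPKM against 13.4, 11.1 and 13.9 FPKM, with a log2 change of -0.04 (95% confidence interval -0.28 to 0.19, limma adjusted p = 0.77) whose sign turned with some settings. The ratio of TM7SF2 to LBR in FPKM was 0.29, 0.42 and 0.22 in controls and 0.72, 0.90 and 0.67 in the libraries labelled YAP, so LBR remained the more abundant transcript in each library.

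MSMO1, the sterol demethylase that acts with NSDHL and HSD17B7, went from 67.4 ± 16.4 to 88.2 ± 2.33 FPKM and just passed the threshold (log2 change 0.41, limma adjusted p = 0.047). Without control replicate 1 the MSMO1 change was 0.20 (limma adjusted p = 0.076), and leaving out YAP replicate 1, 2 or 3 also ended the call (adjusted p from 0.056 to 0.090). NSDHL stood at 27.3 ± 4.07 and 31.02 ± 1.46 FPKM (limma adjusted p = 0.18) and HSD17B7 at 3.04 ± 0.83 and 3.92 ± 0.71 FPKM (limma adjusted p = 0.16). Neither passed, and their log2 changes of 0.19 and 0.30 were 0.08 and 0.11 without control replicate 1. NSDHL was called without control replicate 2 (log2 change 0.29, limma adjusted p = 0.042) and with the replicate block (limma adjusted p = 0.042), and HSD17B7 with library weights (limma adjusted p = 0.018). Of the last steps, EBP, the sterol isomerase, rose from 87.1 ± 12.4 to 119.8 ± 8.35 FPKM (log2 change 0.46, limma adjusted p = 0.0054). DHCR7, which completes cholesterol by reducing 7-dehydrocholesterol, had 25.4, 37.2 and 31.2 FPKM in controls and 51.3, 49.1 and 46.8 FPKM in the libraries labelled YAP (log2 change 0.65, SE 0.12, limma adjusted p = 0.0015). SC5D, the desaturase between them, stood at 15.1 ± 2.73 and 16.2 ± 1.89 FPKM. Its log2 change of 0.11 (limma adjusted p = 0.55) turned to -0.04 without control replicate 1. In all, 13 of the 19 synthesis enzymes rose and 0 fell by limma, with 1 lower at an unadjusted p under 0.05 (SQLE) and 0 lower by limma-voom. Over all tested genes, limma called 12.9% higher and 23.0% lower.

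**Figure D2:**
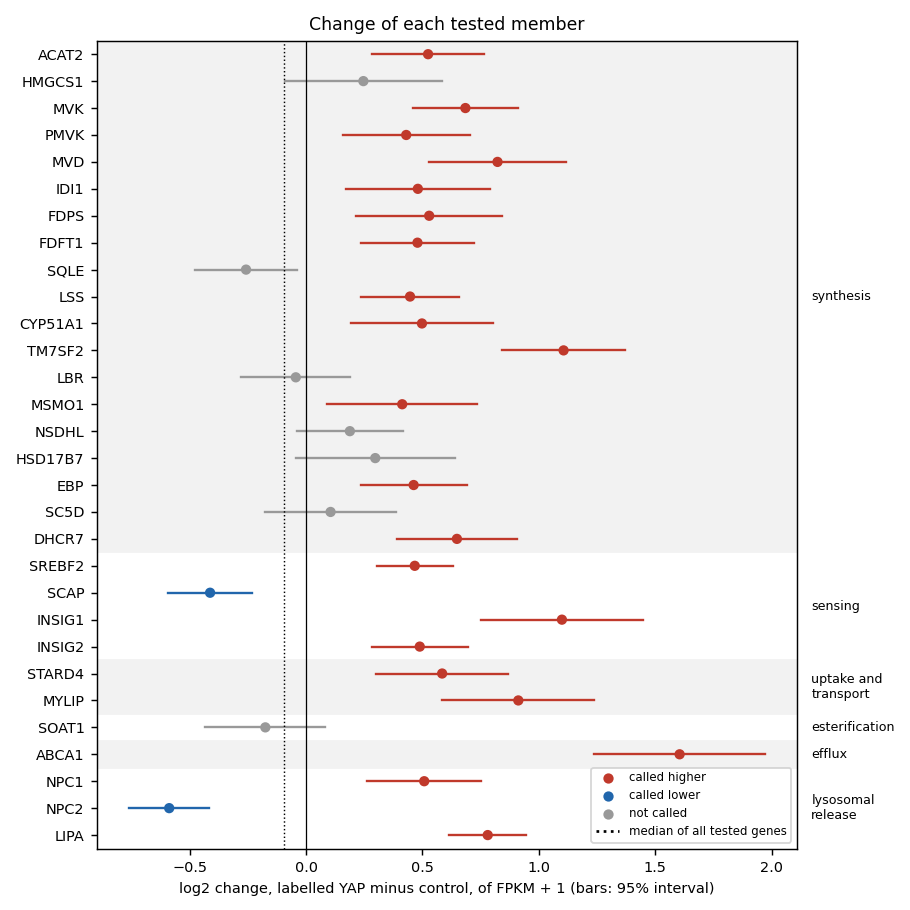
Log2 change of FPKM + 1 for the 30 tested members, labelled YAP minus control, with 95% intervals as bars, red for genes called higher, blue for genes called lower and grey for genes not called. ABCA1 at 1.61, TM7SF2 at 1.11 and INSIG1 at 1.10 lie farthest right, NPC2 at -0.59 and SCAP at -0.41 farthest left, and the dotted line marks the median of all tested genes at -0.10.

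The genes of sterol sensing moved in both directions. SREBF2, which encodes the factor that drives the synthesis genes and is itself among its targets, had 64.1, 71.9 and 68.0 FPKM in controls and 96.8, 93.5 and 92.5 FPKM in the libraries labelled YAP (log2 change 0.47, SE 0.07, limma adjusted p = 6.6e-04). The groups were well separated, and the change stayed at 0.43 or more whichever library was left out. SCAP, the escort of SREBF2, fell from 24.5, 21.5 and 22.5 FPKM to 16.4, 17.6 and 16.6 FPKM (log2 change -0.41, SE 0.08, limma adjusted p = 0.0026). INSIG1, a target of SREBF2 that retains SCAP, had 21.2, 36.1 and 29.8 FPKM in controls and 64.5, 53.9 and 68.3 FPKM in the libraries labelled YAP (log2 change 1.10, SE 0.16, limma adjusted p = 3.2e-04). Its lowest value in the libraries labelled YAP was above its highest control value. INSIG2, the related retention protein, rose from 7.74, 8.43 and 9.70 to 12.0, 12.6 and 12.8 FPKM (log2 change 0.49, SE 0.09, limma adjusted p = 0.0022). The ratio of INSIG1 to INSIG2 was 2.74, 4.28 and 3.07 in controls and 5.38, 4.27 and 5.35 in the libraries labelled YAP, so that the ratios of control replicate 2 and YAP replicate 2 nearly coincided.

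Of 10 other tested genes of SREBP processing and sterol-dependent degradation, 1 rose and 2 fell, beside 12.9% higher and 23.0% lower over all tested genes. SREBF1, the relative of SREBF2 that favours fatty acid genes and is also induced by LXR, had 15.7, 24.1 and 15.4 FPKM in controls and 48.2, 59.0 and 39.1 FPKM in the libraries labelled YAP (log2 change 1.37, limma adjusted p = 1.2e-04). RNF139, an endoplasmic reticulum ubiquitin ligase, fell from 14.1 ± 1.00 to 11.3 ± 1.06 FPKM (log2 change -0.30, limma adjusted p = 0.027). ERLIN1, a membrane scaffold of degradation complexes, fell from 15.6 ± 2.31 to 12.1 ± 1.32 FPKM (log2 change -0.34, limma adjusted p = 0.038). After each of the 3 scalings, and with no filter on low values, 0 genes of this list were called lower. The count was also 0 without control replicate 3, YAP replicate 1 or YAP replicate 2, and 1 without control replicate 1.

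STARD4 and MYLIP, which bear on the traffic of cholesterol into and within the cell, both rose. STARD4, a soluble sterol carrier and SREBF2 target, had 7.89, 7.33 and 10.5 FPKM in controls and 13.1, 11.7 and 15.1 FPKM in the libraries labelled YAP (log2 change 0.58, SE 0.13, limma adjusted p = 0.0049). MYLIP, an LXR-induced ubiquitin ligase that marks lipoprotein receptors for degradation, had 2.98, 5.30 and 4.77 FPKM in controls and 8.78, 8.35 and 9.54 FPKM in the libraries labelled YAP (log2 change 0.91, SE 0.15, limma adjusted p = 7.5e-04). In both genes the groups did not overlap, against 48.3% of all tested genes. Of 7 other tested genes of lipoprotein and sterol uptake, 3 rose and 0 fell by limma. Over all tested genes, 12.9% were called higher and 23.0% lower. VLDLR, a lipoprotein receptor, rose from 3.91 ± 0.56 to 11.1 ± 0.61 FPKM (log2 change 1.31, limma adjusted p = 2.7e-06), while LRP8 (log2 change 0.30, limma adjusted p = 0.025) and LRP1 (0.35, limma adjusted p = 0.040) rose less. LRP8 and LRP1 were not called without control replicate 1, YAP replicate 1 or YAP replicate 3, nor LRP1 without control replicate 2 (adjusted p from 0.066 to 0.14). CD36, a scavenger receptor named after its values were seen, was below the filter, with 73, 25 and 35 reads in controls and 5, 2 and 5 reads in the libraries labelled YAP, and was called lower with the filter at 0.1 FPKM (limma adjusted p = 0.014) and with no filter (0.032). SOAT1, which esterifies cholesterol for storage, stood at 8.76 ± 1.42 and 7.62 ± 0.89 FPKM with overlapping groups (log2 change -0.17, 95% confidence interval -0.43 to 0.08, limma adjusted p = 0.27). Without control replicate 3 the SOAT1 change was -0.06.

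The efflux transporter ABCA1, which loads cholesterol onto apolipoprotein A-I, showed the largest change of any member. It had 5.44, 7.72 and 8.28 FPKM in controls and 24.6, 18.1 and 29.1 FPKM in the libraries labelled YAP, giving a 3.35-fold ratio of means (log2 change 1.61, SE 0.17, limma adjusted p = 3.0e-05), on 1888 to 10711 reads per library. Of all tested genes, 0.976% had a larger log2 change. ABCG1, the transporter that passes cholesterol to lipoprotein particles, was barely detected, with 0, 1 and 2 reads in control replicates 1 to 3 and 1, 0 and 6 reads in YAP replicates 1 to 3. It was below the filter and was not tested, and 5 of its 6 values lay under the floor of 3 reads that was taken for detection (read numbers cover counting error only).

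The genes of lysosomal release did not move as 1 block. LIPA, the acid lipase, had 55.2, 55.4 and 61.7 FPKM in controls and 99.9, 98.3 and 99.6 FPKM in the libraries labelled YAP (log2 change 0.78, SE 0.08, limma adjusted p = 1.5e-05). NPC1, the membrane transporter, rose from 6.78, 6.22 and 7.78 to 10.1, 8.96 and 11.8 FPKM (log2 change 0.51, SE 0.11, limma adjusted p = 0.0050). NPC2, the soluble carrier that hands cholesterol to NPC1, fell from 246, 221 and 216 to 151, 156 and 146 FPKM (log2 change -0.59, SE 0.08, limma adjusted p = 2.0e-04). All 3 genes separated the groups without overlap, against 48.3% of all tested genes. NPC2 was the most abundant member in every library. The NPC1 to NPC2 ratio in FPKM was 0.028, 0.028 and 0.036 in controls and 0.067, 0.058 and 0.081 in the libraries labelled YAP. A further row with the deposited symbol NPC1, described as NPC1-like, was kept apart, and the sources used here do not say how reads matching both rows were assigned.

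ABCA1, LIPA, NPC1 and NPC2 are also strongly expressed in macrophages. In these libraries the 9 macrophage and leukocyte markers found summed to 22.2 to 25.3 FPKM in controls against 30.2 to 32.1 FPKM in the libraries labelled YAP. Of these 9 markers, 6 were at or near 0 in both groups. AIF1 was listed at 0 in every library, PTPRC did not exceed 0.0061 FPKM, CD74 0.017, ITGAM 0.013, CSF1R 0.088 and TYROBP 0.16. The sum came from LAPTM5, from CD14 (called higher) and from CD68 (called lower).

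Set beside each other, the SREBF2 targets of synthesis, sensing and sterol transport and the efflux and lysosomal genes both held mostly rises. Neither list holds a lipoprotein receptor. Of 21 SREBF2 targets (18 synthesis enzymes without LBR, INSIG1, SREBF2 and STARD4), 16 rose and 0 fell by limma, with 1 lower at an unadjusted p under 0.05 and 0 lower by limma-voom, and the median log2 change was 0.48. Of the 4 tested efflux and lysosomal genes, 3 rose (ABCA1, LIPA and NPC1) and 1 fell (NPC2), with a median log2 change of 0.64. Over all tested genes, 12.9% were called higher and 23.0% lower, with a median log2 change of -0.10. The difference between the lists was not tested. The summed level of the SREBF2 targets was 634, 909 and 801 FPKM in control replicates 1 to 3 and 1080, 1077 and 1065 FPKM in YAP replicates 1 to 3. The summed level of the 5 efflux and lysosomal genes was 313, 291 and 294 FPKM in controls and 286, 281 and 286 FPKM in the libraries labelled YAP, a sum in which NPC2 outweighs the others.

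**Figure D3:**
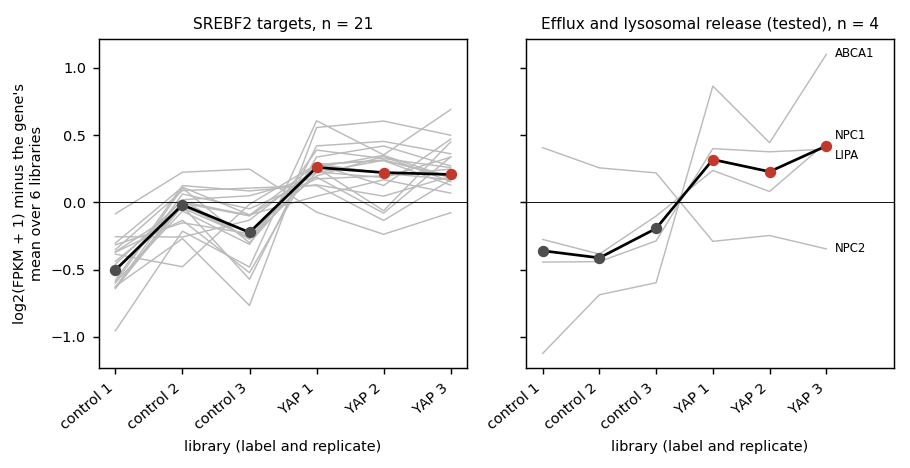
Each grey line is a gene, given as log2(FPKM + 1) minus its mean over the 6 libraries, for the 21 SREBF2 targets (left) and the 4 tested efflux and lysosomal genes (right). Dots joined by the black line are medians per library, grey for control and red for labelled YAP, and the order of replicates has no meaning. On the left the controls spread widely with control replicate 1 lowest, and on the right NPC2 runs opposite to ABCA1, NPC1 and LIPA.

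The controls differed among themselves in the SREBF2 targets more than in other genes. Control replicate 1 was the lowest of the 3 controls in 17 of 21 targets and the highest in 0, whereas over all tested genes it was the lowest in 27.7%. Control replicate 2 was the highest control in 16 of 21 targets, against 25.6% of all tested genes. The coefficient of variation was larger in the controls than in the libraries labelled YAP for 20 of 21 targets and for 64.5% of tested genes. Its median over the targets was 18.8% in controls, against 5.37% in the libraries labelled YAP, and over all tested genes 9.83% and 7.59%. Without control replicate 1 the log2 change of all 21 targets was smaller or more negative, 19 of 21 were positive, the median went from 0.48 to 0.37, and 13 rose and 1 fell (SQLE). In that fit limma called 1239 of 10642 tested genes higher and 1909 lower. Leaving out YAP replicate 1 also gave 13 higher targets, in a fit where 909 of 10607 tested genes were called higher. The log2 changes of MSMO1, IDI1 and CYP51A1, which were called with all libraries, and of HMGCS1, HSD17B7 and NSDHL, which were not, shrank more than 1.5-fold without control replicate 1. The 4 tested efflux and lysosomal genes kept their calls in each fit without a library, with ABCA1 between 1.45 and 1.79.

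**Figure D4:**
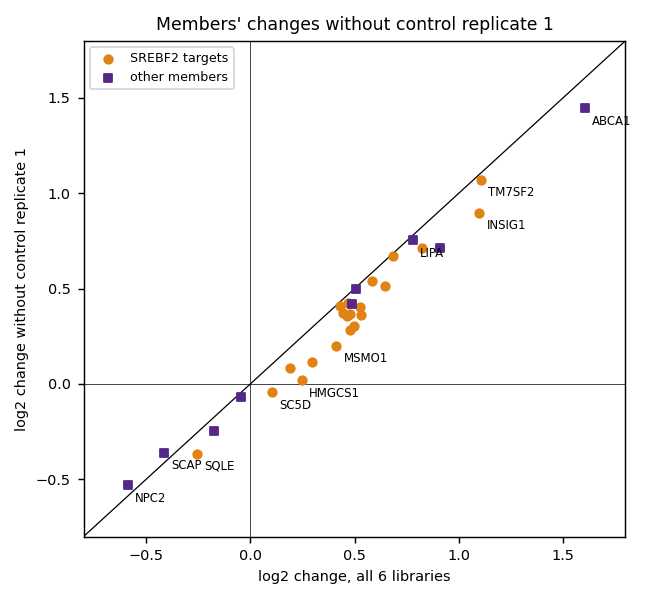
Log2 change of each tested member with all 6 libraries (x axis) and without control replicate 1 (y axis), with SREBF2 targets as orange circles, other members as purple squares and the line of equal values. The orange points all lie under the line, with HMGCS1 near 0 at 0.02 and SC5D at -0.04, while TM7SF2 at 1.07 and ABCA1 at 1.45 keep most of their change.

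The lists of genes around the pathway together held 72 found genes, of which 65 were tested. They cover sterol transport, LXR response, oxysterol metabolism and accessory enzymes, and also the isoprenoid, SREBP processing and uptake genes counted above. Of the 65 tested, 15 rose and 7 fell, beside 12.9% higher and 23.0% lower over all tested genes. In either direction 22 of 65 were called, near the 35.9% of all tested genes. Their median log2 change was 0.02, beside -0.10 for all tested genes. The falls depended on scaling, with 0 lower after median-of-ratios scaling, and on single libraries, with 1 lower and 9 higher without YAP replicate 1, 3 lower without control replicate 1, and 4 lower without control replicate 3 or YAP replicate 2. Among genes of LXR response and efflux, PLTP, a phospholipid transfer protein, had 32.2, 32.8 and 27.7 FPKM in controls and 132, 142 and 129 FPKM in the libraries labelled YAP (log2 change 2.09, limma adjusted p = 1.7e-08), and LPCAT3, a phospholipid acyltransferase, rose from 36.8 ± 4.66 to 94.6 ± 2.12 FPKM (log2 change 1.34, limma adjusted p = 9.3e-07). NCEH1, a hydrolase of cholesteryl esters, rose from 2.61 ± 0.47 to 3.78 ± 0.44 FPKM (log2 change 0.41, limma adjusted p = 0.017). NCEH1 was not called without control replicate 1, control replicate 2, YAP replicate 1 or YAP replicate 3 (adjusted p from 0.059 to 0.066). APOE, an apolipoprotein that accepts exported cholesterol, went from 134 ± 23.1 to 161 ± 27.0 FPKM and did not pass (limma adjusted p = 0.16). It was called higher after quantile normalization (limma adjusted p = 0.0405) and with the replicate block (limma adjusted p = 0.0025). The receptor genes themselves had log2 changes of 0.01 for NR1H3 (LXR alpha, 95% confidence interval -0.19 to 0.20) and 0.04 for NR1H2 (LXR beta, 95% confidence interval -0.17 to 0.26). APOE and both receptors were picked with their values in view.

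Beside 12.9% of all tested genes called higher, 3 of 4 tested enzymes that make or clear oxysterols rose. The other, CYP27A1, a sterol hydroxylase, stood at 55.8 ± 7.06 and 53.4 ± 4.32 FPKM with overlapping groups (log2 change -0.06, 95% confidence interval -0.28 to 0.16, limma adjusted p = 0.67). CH25H, which makes 25-hydroxycholesterol and is inducible by interferon, had 11.9, 16.0 and 13.4 FPKM in controls and 46.6, 51.6 and 48.4 FPKM in the libraries labelled YAP (log2 change 1.76, limma adjusted p = 2.3e-07). CYP7B1, which hydroxylates 25-hydroxycholesterol, rose from 1.19 ± 0.22 to 3.50 ± 1.03 FPKM (log2 change 1.01, limma adjusted p = 4.4e-04). HSD3B7, a sterol dehydrogenase of the bile acid route, rose from 40.6 ± 3.55 to 62.8 ± 3.71 FPKM (log2 change 0.62, limma adjusted p = 2.5e-04). Of 20 tested sterol transport genes, 4 were called higher and 5 lower, beside 12.9% and 23.0% of all tested genes. TMEM97, an endoplasmic reticulum protein that binds NPC1, rose from 37.2 ± 3.40 to 59.6 ± 1.86 FPKM (log2 change 0.67, limma adjusted p = 1.3e-04), OSBPL5 rose from 41.0 ± 3.68 to 54.1 ± 2.27 FPKM (limma adjusted p = 0.0043), and SCP2, the sterol carrier protein, fell from 17.1 ± 1.26 to 13.5 ± 0.29 FPKM (limma adjusted p = 0.012). After median-of-ratios scaling 0 of the transport genes were called lower. Without YAP replicate 1 the transport counts were 2 higher and 1 lower, and without control replicate 1 they were 3 higher and 2 lower. SCP2 was not called without YAP replicate 1 (limma adjusted p = 0.068). Among 6 tested accessory enzymes, HSD17B12 rose (log2 change 0.39, limma adjusted p = 0.0098), beside 12.9% higher over all tested genes. Without YAP replicate 1, 0 of the 6 were called. The count was 2 higher with no filter on low values, median-of-ratios scaling, quantile normalization or the replicate block. With library weights it was 2 higher and 1 lower.

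**Figure D5:**
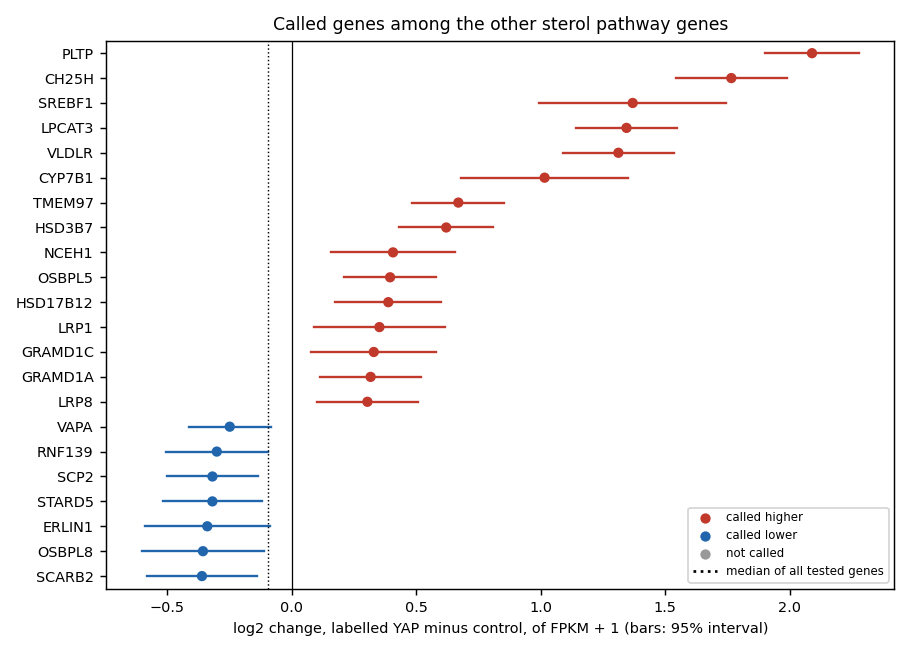
Log2 change of FPKM + 1 with 95% intervals for the 22 called genes among 65 tested genes around the pathway, red for genes called higher and blue for genes called lower in the libraries labelled YAP. PLTP at 2.09 and CH25H at 1.76 lead the rises, and the 7 blue genes lie between -0.36 and -0.25, left of the dotted median of all tested genes at -0.10.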

How the data were processed

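The authors deposited FPKM values with 1 column per library, and control and YAP libraries came in different tables. Tools listed in the submitters' processing notes are fastp, HISAT2 and HTSeq. No source used here gives their versions, settings, genome build or strand use, so no coordinates are printed. A further 6 columns of per-sample values match no sample of the series and were not used. FPKM were taken as deposited. Genes reaching 1 FPKM in 3 or more libraries were tested on log2(FPKM + 1), all in a single limma model (lmFit and eBayes, trend on; limma 3.58.1, R 4.3.3). P-values are two-sided, with Benjamini-Hochberg adjustment across every tested gene, and intervals are 95% intervals of that model.

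Whole reads were recovered from the FPKM steps (15958 genes above 0, whole within 0.05 reads), which gave the library totals and read numbers. The members and gene lists were chosen with earlier results of these data known. All 31 members, YAP1, and up to 3 called genes per surrounding list with the smallest adjusted p are named, and others only as markers, label checks or where stated. One gene was taken out of a surrounding list and is not reported here. The model was tested on simulated data. All 31 members have an entry in RefSeq's goat gene table (ARS1.2). Alternatives were another pseudocount, 2 other filters, 3 scalings, a replicate block, no variance trend, library weights, limma-voom on the recovered reads, and each library left out.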

Additional observations from a re-analysis of the deposited data

How the results depend on the processing

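Across 16 alternatives, 452 of 480 log2 changes of members kept their sign and their side of the threshold, 16 lost a call, 6 gained one and 6 changed sign. The sign changes were in LBR, which was not called in any fit (0.041 with median-of-ratios scaling, 0.023 with quantile normalization, 0.056 with library weights, and -0.10 to 0.048 without 1 library), and in SC5D (-0.044 to 0.20 without 1 library). The number of members called higher ran from 16 without a filter on low values, where PMVK, IDI1, FDPS, CYP51A1 and MSMO1 were lost, to 22, and 18 to 22 without 1 library. The number of SREBF2 targets called lower was 1 (SQLE) with the replicate block or library weights and 0 to 1 without 1 library. Whether replicate numbers pair the samples could not be settled, and the main fit used no pairing. Deviations from the group means correlated at -0.02, 0.59 and 0.60 for numbers 1 to 3. Control replicate 2 with YAP replicate 3 gave -0.56, and control replicate 3 with YAP replicate 2 gave -0.62. Control replicate 1 correlated best with YAP replicate 2, at 0.12. The replicate block raised all calls from 3868 to 5573. The surrounding sterol genes called lower went from 7 to 0 with median-of-ratios scaling, 1 with a fixed sum, 3 with quantile normalization, 11 with the replicate block and 13 with library weights. Without 1 library those called lower ran from 1 to 8 and those called higher from 9 to 15. All calls ran from 2290 to 3515 and the YAP1 log2 change from -0.028 to 0.054 without 1 library. YAP1 turned negative without control replicate 1 (-0.028), YAP replicate 1 (-0.018) or YAP replicate 3 (-0.014). The estimate of the library weights stopped before it converged, so values with library weights are provisional. The causes were not tested.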
